A study of Danio rerio with 2 samples.

Results

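The embryonic globin genes hbbe1, hbbe2, hbbe3, hbae1 and hbae3 and the erythroid genes gata1a, alas2 and slc4a1a were followed in zebrafish embryos homozygous for a mutant allele of gnl2 and in wild-type embryos. Probes were found by gene name, and the names were chosen with earlier results of these data known. Of the 8 names, 6 were found on the array, each as 1 probe, which makes 6 of the 21495 gene probes. Names in the files gave 5 of these probes, with gata1a under its older name gata1, and the accession gave slc4a1a, which the files call slc4a1. The names alas2 and hbbe3 were matched to no probe and were not analysed here.

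The mutant embryos were homozygous for the bw41c allele of gnl2, which encodes a nucleolar GTPase, and came from matings between heterozygous carriers. Wild-type embryos were of the TL strain, and the labels do not say that they were siblings of the mutants. Embryos of both genotypes were raised at the same temperature and taken at 22 hours post-fertilization, and each extract held the RNA of 40 whole embryos. Mutant and wild-type RNA, 500 ng each, were hybridised together on 2 arrays, with mutant RNA in Cy5 on array 1 and in Cy3 on array 2. The series text calls the arrays biological replicates with a dye swap, but the titles of the arrays carry the same replicate number. If the extracts were shared, the p-values measure only technical spread. All ratios are log2 of mutant over wild type, and n = 2 arrays for every value.

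Primitive red cells of the zebrafish arise from lateral mesoderm that gathers in the intermediate cell mass of the trunk, and they enter circulation soon after the stage sampled. Gata1 switches on their gene programme. Embryonic α- and β-globin chains then assemble with haem into embryonic haemoglobin, and the anion exchanger band 3, encoded by slc4a1a, is set into the red cell membrane. In mammals, several defects of ribosome assembly are known for their effects on red cell production.

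The median signal of all gene probes was 482 in mutant and 243 in wild-type RNA on array 1, and 204 in mutant and 305 in wild-type RNA on array 2. The share of probes well above background lay between 92.7% and 96.4% in the mutant channels and between 94.0% and 94.5% in the wild-type channels. The single gnl2 probe had ratios of -0.99 on array 1 and -2.27 on array 2, and where the bw41c lesion lies relative to this probe is unknown here, so it does not check the labels. The 6 erythroid probes were above background in both genotypes on both arrays, and 0 of their spots were saturated. Globin transcripts and gata1a were thus measured in these whole embryos, where a level is a sum over all cells. Fewer red cells and less RNA per red cell cannot be told apart in such RNA, nor can more cells and more RNA per cell.

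The clearest difference among the 6 probes was that of hbbe2, which was about 1.5-fold higher in mutants on both arrays after loess, and 1.85-fold and 1.34-fold higher on arrays 1 and 2 with median centring in its place. The ratios of slc4a1a were near 0, those of hbbe1 were 0.013 and 0.17, and gata1a was higher mainly on array 1. A brighter, untested probe described as embryonic 1 beta-globin had 0.50 and 0.19, the first from a saturated mutant spot. The α-globin probes hbae1 and hbae3 each pointed in opposite directions on the arrays, and in opposite order to each other. None of the 5 probes tested passed limma's test after Benjamini-Hochberg adjustment over 19284 probes (adjusted p = 1.00 for each), and 0% of all probes did.

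The β-globin gene hbbe2, one of the embryonic β-chain genes, had normalized log2 intensities of 10.44 and 9.74 in mutants, against 9.82 and 9.16 in wild-type embryos, on arrays 1 and 2. After normalization mutant RNA was the brighter of the pair on each array, but the genotypes' levels overlapped, because both genotypes were higher on array 1. In raw signal, mutant over wild type was 3.54 on array 1 and 0.88 on array 2. The medians of all gene probes were 1.90 and 0.70. The normalized log2 ratios of 0.62 and 0.59 averaged 0.60 ± 0.02 (SD, n = 2), or 1.52-fold. The mean was far larger than the spread between arrays, and limma gave an unadjusted p of 0.00318 and an adjusted p of 1.00. Over all probes tested, 2.03% were higher and 1.24% lower at an unadjusted p under 0.05, beside 1 higher and 0 lower of the 5. At least 1.5-fold higher on both arrays were 49 probes, or 0.254%, at least 1.5-fold lower were 0.0519%, and hbbe2 stood at percentile 99.3 of the mean ratios. Agilent's error model for single arrays gave p-values of 0.000199 and 0.000129, and 0.508% of the tested probes were higher with a p under 0.01 on both arrays by that measure.

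A second probe on the array, TC295809, is described in the files as embryonic globin beta e2. It was singled out from the descriptions after the values had been seen. Its log2 intensities were 10.23 and 9.63 in mutants, against 9.64 and 8.996 in wild-type embryos. These levels mirrored those of the hbbe2 probe, again higher for both genotypes on array 1. The ratios were 0.59 and 0.63, with a mean of 0.61 ± 0.03 (SD, n = 2), an unadjusted limma p of 0.00306 and an adjusted p of 1.00. The probes differed by -0.023 on array 1 and 0.041 on array 2. They were hybridised with the same RNA and so are no replicates of the embryos.

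The other β-chain gene with a probe, hbbe1, had log2 intensities of 8.92 and 8.86 in mutants, against 8.91 and 8.70 in wild-type embryos. The genotypes overlapped, and on array 1 they were nearly equal. The ratios of 0.013 and 0.17 averaged 0.090 ± 0.11 (SD, n = 2), a difference within the spread between arrays, with an unadjusted limma p of 0.391 and an adjusted p of 1.00. The current annotation holds hbbe1 as near-identical copies, and the probe was matched to hbbe1.1 through a synonym of that gene, so which copies the probe reads is uncertain. Other probes described as embryonic 1 beta-globin gave ratios of 0.060 and 0.0046 (TC279374) and of -0.018 and -0.16 (TC300015). Both were dim, with mutant log2 intensities of 7.65 and 7.33 for TC279374 and 6.61 and 6.66 for TC300015. A further, much brighter probe with that description, at 14.96 and 14.46 in mutants, had ratios of 0.50 and 0.19. Its mutant spot was saturated on array 1, so the ratio of 0.50 may be too low. It also carried an outlier flag on array 2, so it was not tested.

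**Figure D1:**
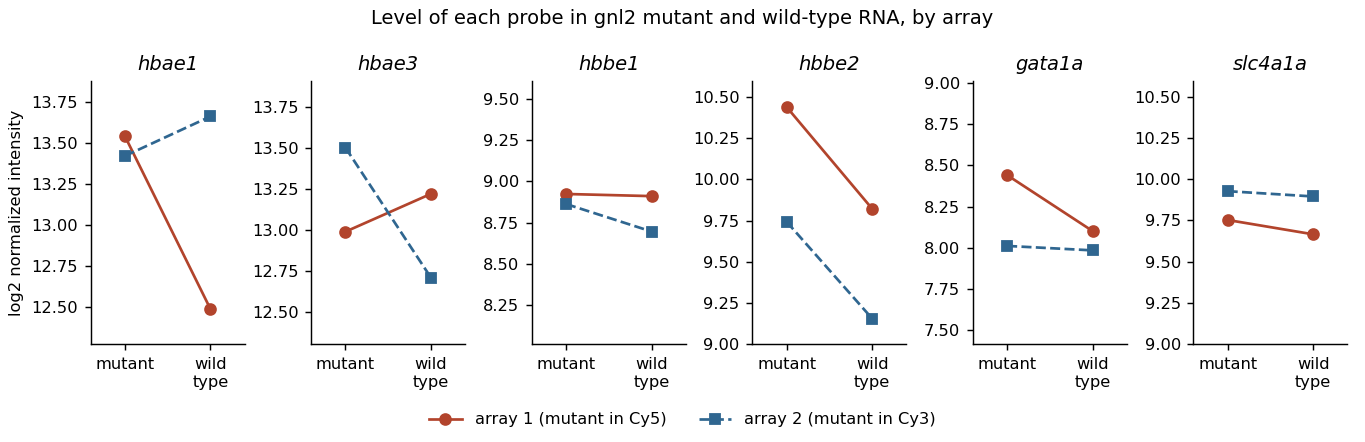
Normalized log2 intensity (vertical axis) of each probe in mutant and wild-type RNA, with a line joining the channels of 1 array; each panel spans the same number of log2 units but has its own origin. For hbbe2 both lines slope down towards wild type, whereas those of hbae1 and hbae3 cross or diverge.

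The α-chain genes differed most between the arrays. For hbae1 the log2 intensities were 13.54 and 13.42 in mutants, against 12.49 and 13.66 in wild-type embryos. Mutants were thus higher on array 1 and lower on array 2, by 1.05 and -0.24, with a mean of 0.41 ± 0.91 (SD, n = 2). The spot carried an outlier flag on array 1 and was left out of the main test. With flagged probes kept, its adjusted p in limma was 1.00. Like hbbe1, hbae1 now counts as several near-identical copies, here matched to hbae1.1.

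For hbae3 the log2 intensities were 12.99 and 13.50 in mutants, against 13.22 and 12.71 in wild-type embryos. Mutants were lower on array 1 and higher on array 2, the reverse of hbae1. The ratios of -0.23 and 0.79 averaged 0.28 ± 0.72 (SD, n = 2), with an unadjusted limma p of 0.391 and an adjusted p of 1.00. The single-array error model gave hbae1 p-values of 1.41e-08 on array 1 and 0.175 on array 2, and hbae3 0.0991 on array 1 and 3.7e-06 on array 2. A small single-array p for these genes therefore came with the other direction on the other array.

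The gap between the arrays set hbae1 and hbae3 apart from most probes. It was 1.29 for hbae1, and 98.7% of the tested probes had a smaller absolute gap. For hbae3 it was -1.02, with 97.6% of probes below it in size. The gap of hbbe2 was 0.028, smaller than that of most probes, since only 10.4% lay closer. The part of the signal that follows Cy5 over Cy3, or anything else that separates the arrays, was 0.65 for hbae1 and -0.51 for hbae3. Over all tested probes this part had an SD of 0.19, larger than the SD of 0.16 of the mean ratios. Disagreement between the arrays was thus general, and their ratios had a Pearson correlation of -0.15 over all tested probes.

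A further probe, TC290061, is described as an alpha-globin whose clone name is a synonym of hbae1.1, and it too was picked after its values were seen. The ratios of 0.25 and -0.86 averaged -0.31 ± 0.79 (SD, n = 2). It differed from the hbae1 probe by -0.80 on array 1 and -0.63 on array 2, and shared its order, higher in mutants on array 1 and lower on array 2. Its red-over-green part was 0.56. In the annotation hbbe1.1 and hbae1.1 are direct neighbours, and 4 protein-coding genes lie between hbae1.1 and hbae3, whereas hbbe2 lies on another chromosome, beside hbbe3 and hbae5. The opposite array patterns of hbae1 and hbae3 thus occurred within 1 cluster.

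**Figure D2:**
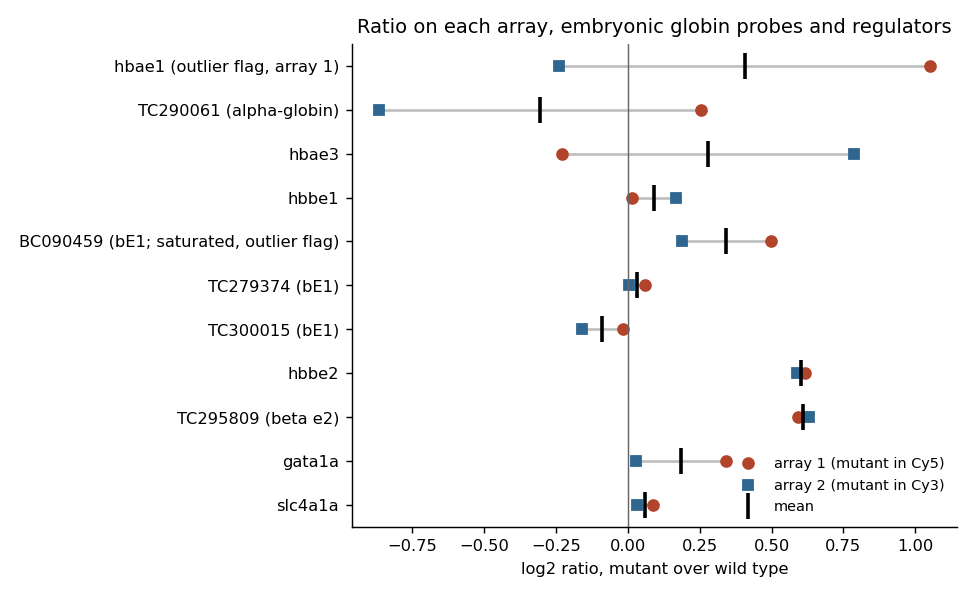
Log2 ratio of mutant over wild type (horizontal axis) on each array, with the mean as a black bar, for embryonic globin probes, gata1a and slc4a1a. Both hbbe2 probes sit near 0.60 on both arrays, while hbae1, TC290061 and hbae3 straddle 0.

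Adult-type globin genes were dim at this stage. The adult β-globin gene hbba1 had 0.014 and 0.0042. For hbba2, log2 intensities were 7.10 and 6.85 in mutants, against 7.15 and 7.28 in wild-type embryos, and the ratios were -0.051 and -0.43, with a mean of -0.24 ± 0.27 (SD, n = 2), an unadjusted limma p of 0.15 and an adjusted p of 1.00. The mean of hbba2 was larger in size under other background corrections, -0.56 with Agilent's processed signals, -0.56 with the deposited table and -0.44 with normexp at offset 0. The levels did not overlap, and levels that did not overlap with mutants lower were found for 4.5% of all probes. A tested globin probe named ba2 was split, with ratios of -0.10 and 0.17. An untested probe of that name had 0.22 and -0.081. The probe of the adult α-globin gene hbaa1 was not well above background in any channel. Among all 12 globin probes beside the 6, 8 could be tested, of which 3 were higher in mutants on each array, 2 lower and 3 split. Over all tested probes the shares were 21.4%, 20% and 58.6%.

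Gata1a, the transcription factor that drives erythroid differentiation, had log2 intensities of 8.44 and 8.01 in mutants, against 8.10 and 7.98 in wild-type embryos. Its mutant level was clearly the higher on array 1 only, and the genotypes overlapped. The ratios of 0.34 and 0.027 averaged 0.18 ± 0.22 (SD, n = 2), less than that spread, with an unadjusted limma p of 0.204 and an adjusted p of 1.00. The gap between its arrays was 0.31, and 77.2% of the tested probes had a smaller one.

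For slc4a1a, whose product exchanges chloride and bicarbonate across the red cell membrane and anchors its skeleton, log2 intensities were 9.75 and 9.93 in mutants, against 9.67 and 9.90 in wild-type embryos. The array made a larger difference than the genotype. The ratios were 0.087 and 0.032, with a mean of 0.059 ± 0.039 (SD, n = 2), an unadjusted limma p of 0.523 and an adjusted p of 1.00.

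Of the 5 probes tested, 4 were higher in mutants on both arrays, 0 were lower on both and hbae3 was split. Over all tested probes, 21.4% were higher on both arrays, 20% were lower on both and 58.6% were split. The median ratio of the 5 probes was 0.087 on array 1 and 0.17 on array 2, and the median of their means was 0.18, beside 0.0089, -0.0034 and 0.0019 for all probes. Among the 4 probes higher on both arrays, hbbe1, gata1a and slc4a1a each had 1 array with a ratio of 0.032 or less.

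**Figure D3:**
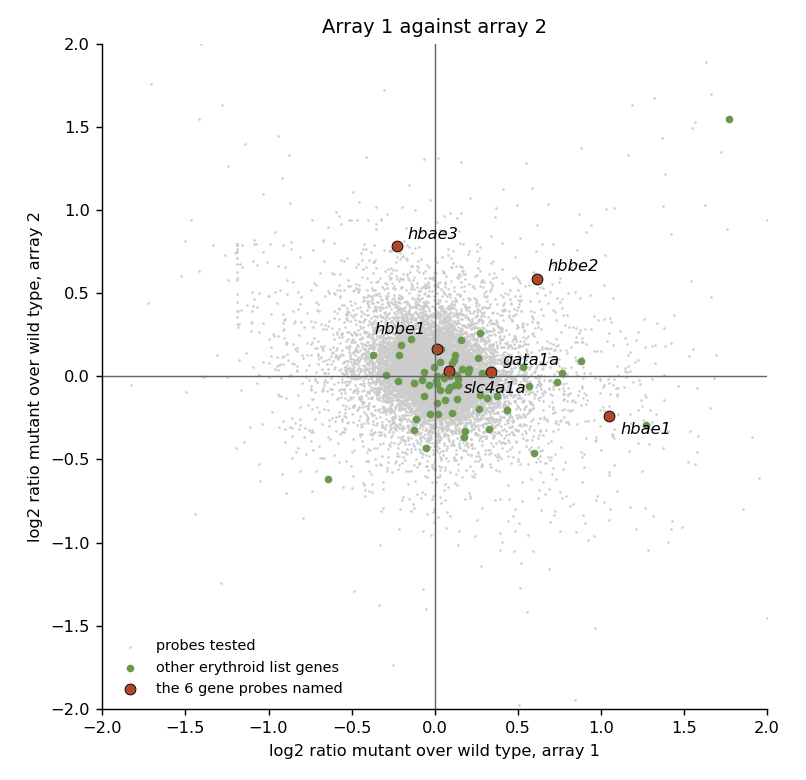
Log2 ratio of mutant over wild type on array 1 (horizontal axis) against array 2 (vertical axis) for all tested probes in grey, the other erythroid list genes in green and the 6 named probes in red. hbbe2 lies in the upper right, hbae1 and hbae3 lie in opposite quadrants, and the other 3 lie near the centre; points beyond 2 log2 units are not drawn.

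The wider erythroid programme was read from a list of 118 further genes by role, of which 68 had a probe and 63 were tested, with the brightest probe taken for each gene. In mutants 20 were higher on both arrays, 10 lower on both and 33 split, beside 21.2% higher and 20.3% lower over all genes tested at 1 probe a gene. The same shares stand beside the counts by role given below. An unadjusted p under 0.05 was reached by 2 higher genes, foxo3b and hmbsa, and 1 lower gene, fth1a, where 1.96% of all genes were higher and 1.22% lower. None had an adjusted p under 0.05 in limma. The fth1a value came from a probe whose mutant spot was saturated on array 1. The median ratio of the list was 0.10 on array 1 and -0.028 on array 2. The difference from all genes, whose medians were 0.012 and -0.0069, was thus seen on array 1 and not on array 2.

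Among 22 transcription factor genes, 6 were higher on both arrays, 2 lower and 14 split. The forkhead factor gene foxo3b, whose mouse relative acts in red cell maturation and the response to oxidative stress, had log2 intensities of 11.23 and 11.07 in mutants, against 9.46 and 9.52 in wild-type embryos. Its mutant levels lay above both wild-type levels, as those of 5.18% of all probes did. The mean ratio was 1.66 ± 0.16 (SD, n = 2), or 3.16-fold, with an unadjusted limma p of 0.000206 and an adjusted p of 0.498. It ranked number 8 of all probes by unadjusted p, and 8 probes shared this adjusted p. With median centring in place of loess its adjusted p in limma was 1.28e-06. The pooled spread was estimated anew in that processing and its degrees of freedom were not recorded, so these adjusted p-values are not like for like. This gene is expressed well beyond red cells, and without it 19 of the 62 remaining list genes were higher on both arrays. The lmo2 gene, for an adaptor in the Gata1 complex, had a mean of 0.19 ± 0.11, and zfpm1, for the Gata1 cofactor Fog1, -0.13 ± 0.14 (SD, n = 2 each).

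Of 4 genes of erythropoietin and Kit signalling, 1 was higher on both arrays, 2 lower and 1 split. The kinase gene jak2b had a mean ratio of 0.12 ± 0.12, the transcription factor gene stat5a -0.12 ± 0.13 and the receptor gene kita -0.18 ± 0.10 (SD, n = 2 each). The first 2 means were no larger than about the spread between arrays, and that of kita was above it.

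Genes of haem synthesis and mitochondrial import were higher on both arrays in 3 of 10 cases, lower in 0 and split in 7. The hmbsa gene, for porphobilinogen deaminase, had log2 intensities of 8.23 and 9.36 in mutants, against 7.96 and 9.10 in wild-type embryos. At this probe each array showed the same step between genotypes, although the levels overlapped. The mean ratio was 0.27 ± 0.0069 (SD, n = 2), with an unadjusted limma p of 0.0393 and an adjusted p of 1.00, and a dimmer hmbsa probe gave 0.13. The glutaredoxin gene glrx5, needed for iron-sulphur clusters, had 0.15 ± 0.19 and a dimmer probe -0.062. The mitochondrial carrier gene slc25a39 had 0.12 ± 0.0039 (SD, n = 2).

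Of 5 genes of iron handling, 1 was higher on both arrays, 2 lower and 2 split. Fth1a, a ferritin heavy chain that stores iron in many cell types, had log2 intensities of 15.23 and 15.14 in mutants, against 15.87 and 15.76 in wild-type embryos. Both mutant levels lay below both wild-type levels, but the mutant spot was saturated on array 1, so the ratio on that array may be too low. The mean ratio was -0.63 ± 0.015 (SD, n = 2), with an unadjusted limma p of 0.00272 and an adjusted p of 1.00. The 3 other fth1a probes had means of -0.14, -0.19 and -0.20, so the probes disagreed in size. The probe at -0.19 was split, with 0.0042 on array 1 and -0.39 on array 2. None of the 3 had an unadjusted limma p under 0.05. Transferrin, tfa, which carries iron in plasma, had 1.27 on array 1 and -0.29 on array 2, and its dimmer probe had a mean of 0.28. The ferritin gene fthl27 had a mean of 0.19 ± 0.044 (SD, n = 2).

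Membrane, skeleton and channel genes were higher on both arrays in 4 of 10 cases, lower in 0 and split in 6. Tmod4, a tropomodulin known mainly from muscle, had ratios of 0.88 and 0.093. The water channel gene aqp3a had 0.74 and -0.036, and the β-spectrin gene sptb, whose protein forms the skeleton under the red cell membrane, had 0.56 and -0.055. For all 3 the higher ratio was that of array 1. Of 10 genes of red cell enzymes and haem breakdown, 4 were higher on both arrays, 3 lower and 3 split. The nucleotidase gene nt5c3a had 0.76 and 0.020, and its dimmer probes had means of 0.22 and 0.32. The carbonic anhydrase gene ca2 had a mean of 0.29 ± 0.34, with 0.10 at its dimmer probe, and the catalase gene cat -0.22 ± 0.14 (SD, n = 2 each).

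Whole embryos hold many other cell types, and several of their marker lists moved with the same array. Median ratios on arrays 1 and 2 were 0.33 and -0.029 for 8 genes of endothelium and haemangioblast, the mesoderm from which blood and vessels form. They were 0.28 and 0.018 for 13 genes of skeletal muscle, and 0.24 and -0.057 for 7 genes of yolk syncytial layer and liver. Neural genes were lower on both arrays in 8 of 10 cases, where 20.3% of all genes were, and their medians were -0.26 and -0.042. The 7 epidermal genes had medians of -0.56 and -0.016, and the 10 myeloid genes 0.054 and -0.012. The 7 heart genes had 0.091 and -0.0055, the 6 pronephric genes 0.024 and 0.036, and the 4 notochord genes 0.0034 and 0.19. The higher array 1 and near-zero array 2 of the erythroid list was thus shared with vessel, muscle, yolk and heart lists. The myeloid list had the same order of arrays, with a smaller array 1 median than the erythroid list. The pattern was not shared with the pronephric and notochord lists, nor with the neural and epidermal lists, whose array 1 medians were below 0. The part of other tissues in the erythroid values was not tested. Some lists share genes, and how much of this likeness comes from the same probes was not tested. Among them, lmo2 and tal1 are in both the erythroid and vessel lists, and tfa is in both the erythroid and yolk lists.

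Summed normalized intensities followed the medians for some lists and not for others. Over the endothelial list they were 4348 and 3917 in mutants, against 3242 and 4237 in wild-type embryos, and over the muscle list 142056 and 176420 in mutants, against 111399 and 169738 in wild-type embryos. The myeloid sums were 3895 and 2589 in mutants, against 3322 and 2646 in wild-type embryos. Neural sums were 20033 and 29797 in mutants, against 27251 and 34645 in wild-type embryos. The yolk and liver sums were lower in mutants on both arrays, at 76428 and 19059 in mutants, against 84880 and 20324 in wild-type embryos, although the median on array 1 was above 0. Much of these sums came from apoeb, with log2 intensities of 15.26 and 13.95 in mutants, against 15.98 and 14.04 in wild-type embryos. Its mutant spot was saturated on array 1, so the direction of the sum on that array is uncertain. The epidermal sums were 162863 and 211255 in mutants, against 299636 and 179332 in wild-type embryos, and so were higher in mutants on array 2, where the median was slightly below 0. No tested marker of these lists was at 0, and 1 pronephric gene with a probe was above background in no channel. Markers at the ends of each list were clec14a at 0.35 ± 0.038 and flt4 at 0.034 ± 0.14 for vessels, and desma at 0.53 ± 0.45 and myhz2 at -0.34 ± 0.014 for muscle. For leukocytes they were lcp1 at 0.55 ± 0.36 and lyz at -0.14 ± 0.026, and for neural tissue elavl3 at 0.080 ± 0.062 and fabp7a at -0.82 ± 0.042 (mean ratio, SD, n = 2 each).

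In the remaining lists, cdh17 of the pronephros had a mean ratio of 0.42 and slc20a1a -0.013, cmlc1 of the heart 0.34 and nppa -0.060, and ntd5 of the notochord 0.31 and plod1a 0.00060. The fibrinogen gene fga of liver and yolk had 0.83, apoeb, saturated in mutants on array 1, had -0.41, icn of the epidermis had -0.52 and agr2 0.013. The signs of plod1a and slc20a1a turned under other normalizations. None of these genes had an adjusted p under 0.05 in limma.

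**Figure D4:**
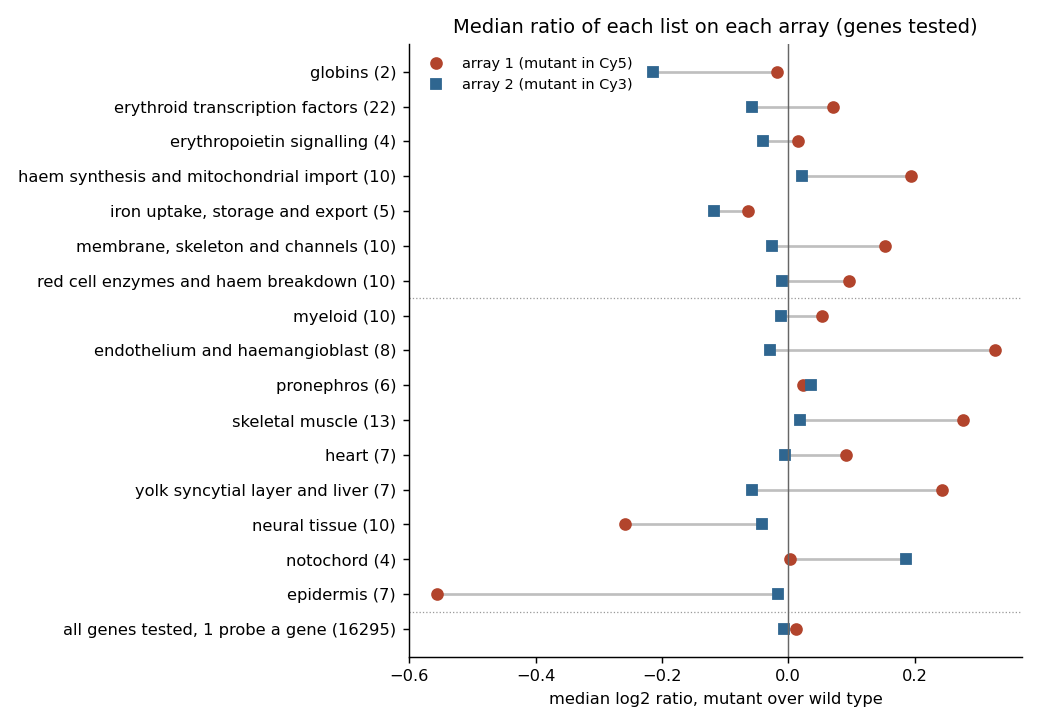
Median log2 ratio of mutant over wild type (horizontal axis) on each array for the erythroid roles without the 8 named genes, for marker lists of other cell types and for all genes, with the number of genes tested in brackets. For most erythroid roles, vessels, muscle and yolk the array 1 median lies to the right of array 2, and for epidermis and neural tissue it lies to the left.

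The medians of the 6 probes were 0.21 on array 1 and 0.10 on array 2. Of the other probes with a gene symbol, gmppaa, meis1a, erg, arl8 and caprin2 lay nearest to this pair of ratios, at distances of 0.0054 to 0.0084 log2 units. Since 421 of 9358 such probes lay within 0.1, the likeness singles out no small group, and it rests on 2 arrays.

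The mean ratios of the 6 probes kept their sign under all 7 other processings tried. Those that changed only the filters on dim, outlier-flagged or saturated probes left the ratios as they were by construction. The deposited table nearly repeated Agilent's processed signals. The ratios could thus move only with Agilent's signals, normexp at offset 0 and median centring. The mean of hbbe2 stayed between 0.60 and 0.65, that of gata1a between 0.18 and 0.24 and that of slc4a1a between 0.058 and 0.094, while hbbe1 lay between 0.090 and 0.12. The means of hbae1 and hbae3 lay between 0.40 and 0.44 and between 0.27 and 0.30, but each took the sign of whichever array was kept when the other was left out. With median centring the ratios of hbbe2 were 0.88 and 0.42, so the gap between its arrays was 0.47, against 0.028 after loess, and array 2 was below 1.5-fold. In that processing, gata1a at 0.46 and -0.040 and slc4a1a at 0.34 and -0.15 were split between the arrays. The hbae3 probe was higher on both at 0.033 and 0.58. Of the 5 tested probes 3 were then higher on both, where 14.5% of all tested probes were.

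**Figure D5:**
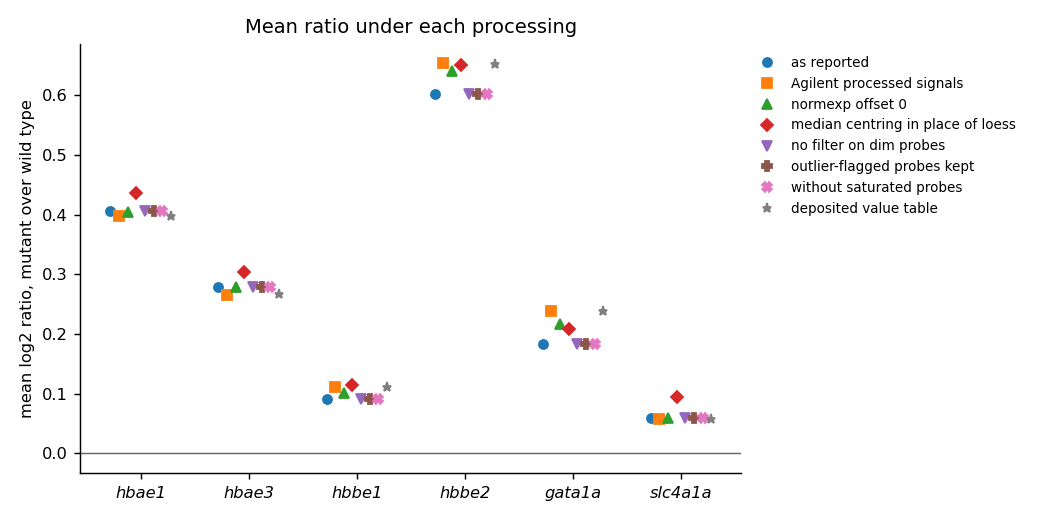
Mean log2 ratio of mutant over wild type (vertical axis) for each of the 6 probes under the main processing and 7 alternatives, each with its own symbol. Each gene's points span less than 0.1 log2 units, and hbbe2 stays above the other genes in every processing. Processings that changed only the probe filters repeat the main values by construction.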

How the data were processed

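Mutant and wild-type RNA were compared directly on 2 Agilent arrays of 22575 spots, 1080 of them controls. Spots were read with Agilent Feature Extraction A.7.5.1, and the deposited intensity values are means over pixels, with a median for the local background, per the file headers. The deposited log10 ratio is red over green processed intensity, and the deposited p-value comes from that software's error model of a single array. The authors' value table holds the same log10 ratios to within 0.00498 on array 1 and 0.00499 on array 2, unturned for the dye swap, and its medians were 0 and 0.

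Intensities were corrected by normexp (offset 50) and loess (span 0.3), giving weight 0 to controls and outlier spots (limma 3.58.1, R 4.3.3). Outlier flags removed 749 probes, and a filter for probes well above background in 1 genotype on both arrays removed 1462. Array 2 was turned to mutant over wild type. The 19284 remaining probes were tested with lmFit and eBayes, 2-sided, with Benjamini-Hochberg adjustment (threshold 0.05), on 1 residual degree of freedom a probe, or 3.49 with the pooled spread. The number of arrays limits the precision. Per-channel levels were quantile-scaled on the average intensity (Aquantile). The fit was tested on simulated data.

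Probes were named by accession (7323), symbol (615) or synonym (2360) through RefSeq tables (assembly GRCz12tu), which also gave the gene order, and 11197 kept the file's name. Lists used the brightest probe of a gene. Members, gene lists and tests were chosen with earlier results of these data known. Named list genes were those with an unadjusted p under 0.05 and the 3 largest absolute means per role. Marker lists were named by their highest and lowest gene, and likeness by the 5 nearest probes. Array, dye, slide and replicate cannot be told apart. Alternatives were other background corrections, centring, filters, the deposited table, Agilent's error model and leaving out each array. Probe and promoter sequences were not used here.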

Additional observations from a re-analysis of the deposited data

How the results depend on the processing

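The number of probes with an adjusted p under 0.05 in limma was 0 as reported and 38 with median centring in place of loess. Agilent's error model gave 133 probes at an unadjusted single-array p under 0.01 on both arrays (98 higher, 35 lower). That count uses another measure and is not comparable with the adjusted ones. At an unadjusted p under 0.05 the number lay between 283 and 680 over the alternatives, against 632 as reported. Under the rule of 1.5-fold on both arrays 1 of the 5 tested probes, hbbe2, was higher, as were 0.254% of all tested probes. With 1 array left out, 4 to 5 of the 5 were higher on the array kept, and of the 68 tested genes of the whole erythroid list 32 were higher on array 2 and 50 on array 1. Over all genes, 47.7% were higher on array 2 and 53.25% on array 1, and these counts are not comparable with the 24 list genes higher on both arrays. Over all tested probes the shares were 48.9% on array 2 and 52.5% on array 1. With median centring 11 of the 68 were higher on both arrays, where 14.2% of all genes were, against 21.2% as reported. Leaving out an array gave ranges of -0.24 to 1.05 for hbae1 and -0.23 to 0.79 for hbae3, and the mean of foxo3b with median centring was 1.70. The cause of these changes was not tested.

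Of 43 further genes named, 2 turned under another processing. The plod1a ratio was -0.019 with Agilent's processed signals, -0.15 with median centring and -0.019 with the deposited table, and slc20a1a had 0.0082 with median centring. With an array left out, signs turned for 8 of these 43 genes, where 58.6% of all tested probes were split between the arrays. The 43 were named by their values, so the shares are not like for like. The ranges were -0.29 to 1.27 for tfa, -0.055 to 0.56 for sptb, -0.036 to 0.74 for aqp3a and -0.065 to 0.13 for flt4. They were -0.068 to 0.069 for plod1a, -0.066 to 0.093 for agr2, -0.18 to 0.81 for ntd5 and -0.041 to 0.015 for slc20a1a. Mutant and wild-type RNA were paired within each array, since each array is 1 direct ratio and the fits used these ratios. The slide could not be a block because each array is its own slide. The mean of hbba2 moved to -0.56 with Agilent's processed signals. The number of arrays limits all values, and among the tested genes named saturation touched fth1a and apoeb.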

Other observations

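Several genes of the red cell programme outside the naming rule, picked after their values were seen, had opposite directions on the arrays. The haem synthesis genes fech, whose ferrochelatase inserts iron into the porphyrin ring, and urod, for uroporphyrinogen decarboxylase, had ratios of 0.59 and -0.46 for fech and 0.43 and -0.20 for urod on arrays 1 and 2. Uros, for uroporphyrinogen synthase, had 0.27 and -0.19. Among transcription factor genes, klf1, for an erythroid Krüppel-like factor, had 0.33 and -0.32, drl, needed in zebrafish for primitive blood formation, 0.37 and -0.12, and tal1, for a factor that specifies blood progenitors, 0.32 and -0.13. Over the list without the 8 named genes, 33 of the 63 tested genes were split, 20 were higher on both arrays and 10 lower. Of the 33 split genes, 26 were higher in mutants on array 1 and lower on array 2. The other 7 were the other way round, among them tspo at -0.22 and 0.13, as hbae3 was. Over all genes tested 58.5% were split, 5223 in the first order and 4317 in the second, and dye and array cannot be told apart.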
